A study of Mus musculus with 37 samples.

Results

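The nuclear genes that encode subunits of respiratory complexes I, III and IV and of the ATP synthase (complex V) were followed in whole mammary glands of mice with and without the tyrosine phosphatase PTP1B. Members were all genes whose single annotated symbol matched a set form over its whole length. The form was Nduf with a, b, c, s or v and then a number, or Uqcr or Atp5 with further letters or digits. Cox4 to Cox8, with optional letters and then optional digits, also counted. Longer symbols such as Ndufa4l2 and Cox7a2l did not match. The probe set with the highest mean stood for each gene. The rule found 75 of 19937 genes: 34 in complex I, 8 in complex III, 16 in complex IV and 17 in complex V. Of these, 74 passed the filter on low values and were tested; Cox7b2, a testis isoform, did not rise above the filter on any array and was left out of the tests. Ndufa4 is counted with complex I by its symbol, although the protein is now placed in complex IV.

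The study compared glands of PTP1B WT (PTP1B +/+) and PTP1B KO (PTP1B -/-) mice by microarray, with 37 arrays in 10 groups. Both genotypes were on the FVB strain; the PTP1B -/- line had been backcrossed for at least 7 generations, and the deletion is in every tissue, not only in the mammary epithelium. P0 stands for nulliparous females in oestrus (4 WT and 4 KO arrays), and P3, P7, P10 and P15 for pregnancy days 3 (3 and 3), 7 (4 and 5), 10 (3 and 3) and 15 (4 and 4); females to be mated were 12 weeks old, and no treatment was given. Nothing in the labels says whether arrays of a group came from separate mice, so p-values measure the spread between these arrays.

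Complex I takes electrons from NADH, complex III passes them from ubiquinol to cytochrome c, and complex IV hands them to oxygen; the proton gradient that results drives the ATP synthase. Each complex joins a catalytic core, partly encoded in mitochondrial DNA, with many small nuclear-encoded subunits, and several complex IV subunits exist as isoforms made in heart, muscle, brown fat, lung or testis. The mouse mammary gland grows as epithelial ducts within a fat pad that holds white and brown adipocytes, and during pregnancy alveoli fill that pad.

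The 250 bases before the annotated start of 4 members are shown because they span the patterns described here. Cox6a1 is the broadly expressed form of a subunit whose muscle form marked single arrays; Uqcr11 had the smallest adjusted p when stages were compared for their KO minus WT values; Cox7a1 and Cox8b fell most in pregnancy. The sequences are from RefSeq (GRCm38.p6), and Cox6a1 lies at chr5:115348959-115349208, minus strand, Uqcr11 at chr10:80406822-80407071, minus strand, Cox7a1 at chr7:30183921-30184170, plus strand, and Cox8b at chr7:140900447-140900696, minus strand. Capitals mark matches, on either strand, to any of 4 short letter strings. The first is a core of the sites bound by NRF1, a regulator of respiratory chain genes, and consists of GCGCA followed directly by its own reverse complement. The next is CCGGAAG, which is the core of the sites bound by transcription factors of the ETS family. Another is CAAGGTCA, which oestrogen-related receptors bind. The last is TATAAA, known as the TATA box; none of these strings contains another.
Cox6a1: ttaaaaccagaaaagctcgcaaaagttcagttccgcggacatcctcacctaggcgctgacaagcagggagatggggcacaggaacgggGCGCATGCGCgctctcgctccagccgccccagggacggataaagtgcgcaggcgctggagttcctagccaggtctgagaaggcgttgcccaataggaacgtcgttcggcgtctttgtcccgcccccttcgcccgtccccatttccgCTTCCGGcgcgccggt
Uqcr11: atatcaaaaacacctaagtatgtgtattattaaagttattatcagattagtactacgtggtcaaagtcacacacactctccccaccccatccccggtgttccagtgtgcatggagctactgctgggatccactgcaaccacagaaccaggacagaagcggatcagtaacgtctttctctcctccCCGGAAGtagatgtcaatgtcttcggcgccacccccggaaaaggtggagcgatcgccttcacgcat
Cox7a1: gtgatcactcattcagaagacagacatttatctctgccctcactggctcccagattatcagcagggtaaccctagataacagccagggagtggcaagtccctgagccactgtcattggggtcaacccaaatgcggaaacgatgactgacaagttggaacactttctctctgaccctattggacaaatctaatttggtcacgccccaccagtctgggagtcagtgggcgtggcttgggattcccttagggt
Cox8b: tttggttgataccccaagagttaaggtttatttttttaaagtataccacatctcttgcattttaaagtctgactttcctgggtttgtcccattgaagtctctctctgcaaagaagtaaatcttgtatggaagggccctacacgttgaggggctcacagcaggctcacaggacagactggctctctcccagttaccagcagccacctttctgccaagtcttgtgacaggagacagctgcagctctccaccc
In the Cox6a1 window the NRF1 letters span positions -162 to -153 and the ETS letters -16 to -10, counted from the base before the start as -1, and in the Uqcr11 window the ETS letters span -66 to -60. The Cox7a1 and Cox8b windows hold none of the 4 letter strings. Windows were found for 61 of the 74 members tested and for 13255 of the genes tested. The NRF1 letters were in 4 of the 61 members (6.56%; Ndufa11, Cox6a1, Atp5g2 and Atp5k) and in 1.51% of the genes tested, the ETS letters in 11 (18.0%) and 12.3%, the oestrogen-related receptor letters in 3 (4.92%) and 1.27%, and TATAAA in 6 (9.84%) and 9.60%.

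Values are log2 probe set intensities as deposited, so a difference of 1 is a factor of 2, and each difference is given as a log2 difference with its standard error (SE). A gene was called when its Benjamini-Hochberg adjusted p from limma, fitted over all 16865 genes that passed the filter, was below 0.05. Array medians lay between 6.52 and 6.79. Ptpn1, the gene of PTP1B, read 7.90 to 9.06 on the WT arrays and 5.36 to 6.49 on 18 of the 19 KO arrays; it read 8.68 on the library labelled KO P15 replicate 3. The mean of a marker list was counted as raised on an array when more than 1 log2 unit above its median over the 37 arrays. Skeletal muscle markers were raised on WT P0 replicate 4, KO P3 replicate 1 and KO P7 replicate 3. B and T lymphocyte markers were raised on WT P7 replicate 1 and KO P10 replicates 2 and 3. These 7 arrays are called the arrays in doubt, and results were also computed without them. In whole glands, fewer cells of a type and less RNA per cell cannot be told apart.

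The group means of all 4 complexes were lowest in the WT glands of day 15, and the KO glands of day 15 stood above them. The mean of the complex I subunits, each centred over the 37 arrays, was -0.29, -0.30, -0.33 and -0.40 on the WT P15 arrays and -0.15, -0.06, 0.10 and -0.09 on the KO P15 arrays. For complex III the means were -0.57, -0.59, -0.56 and -0.67 in WT and -0.21, -0.01, 0.17 and -0.11 in KO. For complex V they were -0.17, -0.15, -0.14 and -0.22 in WT and -0.01, 0.03, 0.16 and 0.06 in KO. In each of these 3 complexes the 4 WT arrays lay below the 4 KO arrays. At P0 the order was less clear, because the WT arrays were spread: the complex I means were 0.42, -0.21, 0.12 and 0.39 in WT and -0.05, -0.22, -0.04 and 0.05 in KO, and the KO arrays lay within the WT range apart from KO P0 replicate 2.

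**Figure D1:**
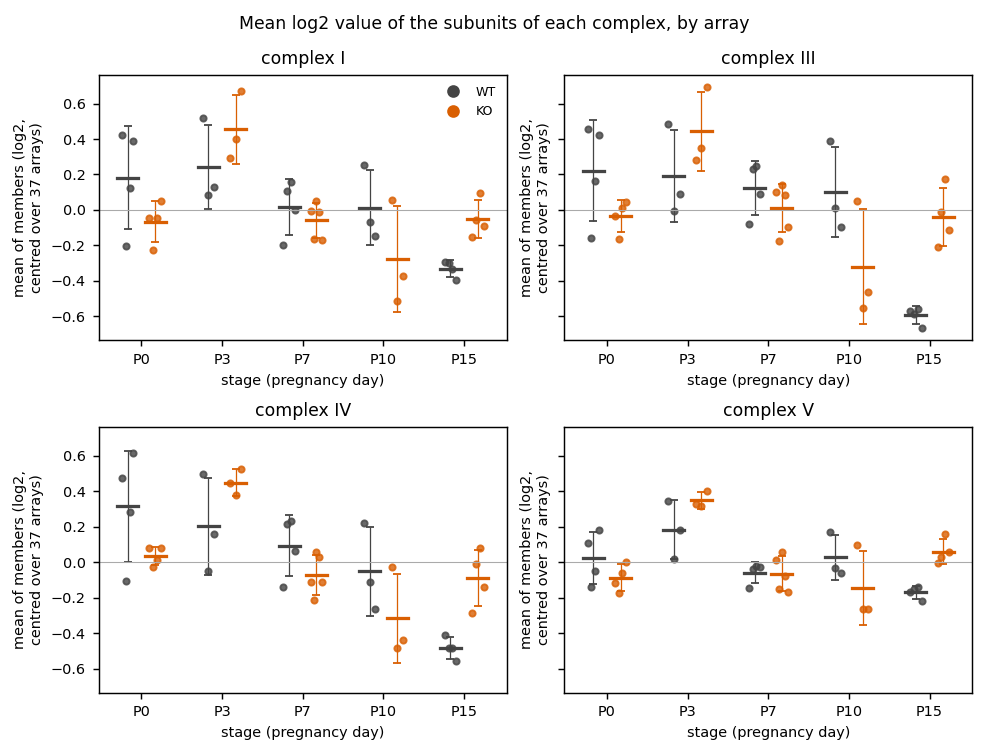
Mean log2 value of the subunits of complexes I, III, IV and V on each of the 37 arrays, each gene centred over all arrays, by stage (x axis) in WT (grey) and KO (orange); points are arrays, thick lines group means and whiskers the SD. In all 4 panels WT P15 has the lowest group mean and KO P3 the highest.

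On pregnancy day 3 some subunits of each complex were called higher than at P0, fewest by share in complex IV. With both genotypes averaged, 38 of 74 members were called higher and none lower, beside 15.7% higher and 14.5% lower among all genes; the median difference of the members was 0.24 and that of all genes -0.02. The called members were 19 of 34 in complex I, 3 of 8 in complex III, 3 of 15 in complex IV and 13 of 17 in the ATP synthase. Atp5md, a small membrane subunit of the ATP synthase that helps its dimers form, had the largest called rise, 0.68 (SE 0.14, adjusted p = 0.00073). Its values at P0 were 11.36, 10.67, 10.99 and 11.31 in WT and 11.16, 10.66, 11.06 and 11.13 in KO, and at P3 12.02, 11.23 and 11.69 in WT and 11.53, 11.89 and 11.97 in KO; all 3 KO P3 arrays lay above all KO P0 arrays. Ndufs4, an accessory subunit needed for the assembly of complex I, rose by 0.65 (SE 0.14, adjusted p = 0.000629). It read 11.61, 10.66, 11.13 and 11.55 in WT and 11.07, 10.73, 10.79 and 11.12 in KO at P0, and 12.02, 11.56 and 11.59 and 11.47, 11.89 and 11.87 at P3, where each KO array again lay above every KO P0 array. Atp5k, subunit e of the ATP synthase, rose by 0.60 (SE 0.11, adjusted p = 0.000224), from 8.996, 9.02, 8.98 and 9.08 in WT and 8.60, 8.68, 8.60 and 8.81 in KO to 9.59, 8.93 and 9.33 and 9.48, 9.58 and 9.77.

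Taken by genotype, the day 3 rise was called for 48 members in KO (7.80% of all genes) and for 2 in WT (11.6% of all genes), with no fall in either (11.0% of all genes in KO and 6.50% in WT). The median difference of the members was 0.45 in KO and 0.05 in WT. For complexes I, III, IV and V the medians were 0.51, 0.43, 0.31 and 0.41 in KO. In WT they were 0.08, 0.00013, -0.11 and 0.11, so complexes III and IV did not rise there. The difference between the 2 responses was itself positive for 73 of 74 members, but none passed the test adjusted over all genes (33 had an unadjusted p below 0.05; 0.302% of all genes were called in that direction and 1.67% in the other), so the day 3 responses were not shown to differ. This count of 0 depended on single arrays: without WT P0 replicate 2, 14 members were called for the difference of responses, without WT P3 replicate 1, 10, and without KO P3 replicate 2, 3, each more positive in KO. With array weights 5 were called. Brown adipocyte markers varied within both P3 groups, with a mean score of 1.04, -0.97 and 0.42 on the WT arrays and -0.39, 0.85 and 2.01 on the KO arrays. With that score as a covariate 53 members were called higher on day 3, both genotypes averaged. Without WT P3 replicate 1, 22 members were called higher and 1 lower, and centring each array on its median left 20 higher and 1 lower.

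On day 7 few members were called, and on day 10 the share called lower was close to that of all genes. On day 7, 2 of 74 members were higher (18.5% of all genes) and 9 lower (18.6% of all genes). The rises were Ndufc2, 0.18 (SE 0.05, adjusted p = 0.011), and Ndufb2, 0.24 (SE 0.09, adjusted p = 0.036), both small membrane-arm subunits of complex I; the largest falls were Ndufb3, -0.41 (SE 0.14, adjusted p = 0.0199), Atp5k, -0.36 (SE 0.10, adjusted p = 0.00585), and Ndufv3, -0.30 (SE 0.10, adjusted p = 0.0172). With each array centred on its median, the day 7 split became 0 higher and 19 lower. Without WT P0 replicate 1 it was 1 and 5, and without WT P0 replicate 2 it was 2 and 15. Within each genotype, WT had 0 higher (15.5% of all genes) and 9 lower (13.8%) and KO none in either direction (7.84% and 8.34%). On day 10, 19 members were lower (22.0% of all genes) and none higher (19.9% of all genes), led by Cox7a1, -1.63 (SE 0.51, adjusted p = 0.0124), Cox8b, -1.45 (SE 0.33, adjusted p = 0.0011), and Ndufb8, -0.45 (SE 0.16, adjusted p = 0.0267). The day 10 count rested on single arrays. It rose to 40 lower without WT P0 replicate 2 and to 35 without KO P10 replicate 1, and it was 11 lower and 1 higher without WT P0 replicate 4, 9 lower without WT P0 replicate 1 or KO P10 replicate 3, 8 without WT P10 replicate 3, 7 without WT P10 replicate 2, and 6 lower and 1 higher without KO P10 replicate 2. Array weights gave 49 lower and 1 higher, and centring 35 lower. Without the 7 arrays in doubt no member was lower on day 10 and 4 were higher, and the 3 named falls were -0.90, -0.85 and -0.10 with none called. Within each genotype on day 10, 2 members were lower in WT (9.71% of all genes) and 4 in KO (16.3%), and none was higher (11.7% and 14.4%). With both genotypes averaged, 8 of 9 brown adipocyte markers were lower than at P0 on day 10. All 13 B and T lymphocyte markers were higher. By genotype, the brown adipocyte markers were lower for 2 of 9 in WT and 3 of 9 in KO. The lymphocyte markers were higher for 0 of 13 in WT (median -0.07) and all 13 in KO (median 2.44).

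In WT glands most members had fallen by day 15, and in KO glands few were called. In WT, 55 of 74 members were called lower than at P0 (27.3% of all genes) and 1 higher (21.6%), with a median of -0.49 against -0.06 over all genes. In KO, 3 were lower (21.8% of all genes) and 8 higher (19.5%), with a median of 0.01 against 0.0063 over all genes. The difference between the 2 responses was called for 27 of 74 members, each less negative or more positive in KO, beside 4.80% of all genes in that direction. No member was called in the opposite direction (5.30% of all genes). Without WT P0 replicate 2 the difference of responses was called for 45, and without WT P0 replicate 1 for 18. It was called for 18 with the brown adipocyte score as a covariate and for 18 without the 7 arrays in doubt. This contrast was added after the values were seen. Markers of other cell types moved over the same interval. Brown adipocyte markers were lower on day 15 for 8 of 9 in WT (median -1.77) and 1 of 9 in KO (median -0.53), while their difference of responses was called for none of 9 (2 had an unadjusted p below 0.05). White adipocyte markers were lower for 9 of 10 in each genotype, with medians of -1.11 in WT and -0.82 in KO. Epithelial markers were higher for 10 of 16 and lower for 2 in WT (median 0.90), and higher for 7 and lower for 2 in KO (median 0.42). Their part in the fall of the members was not tested beyond the brown adipocyte covariate described further on. By complex, the WT falls were 29 of 34 in complex I, 7 of 8 in complex III, 11 of 15 in complex IV and 8 of 17 in the ATP synthase, with medians of -0.53, -0.87, -0.58 and -0.22.

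**Figure D2:**
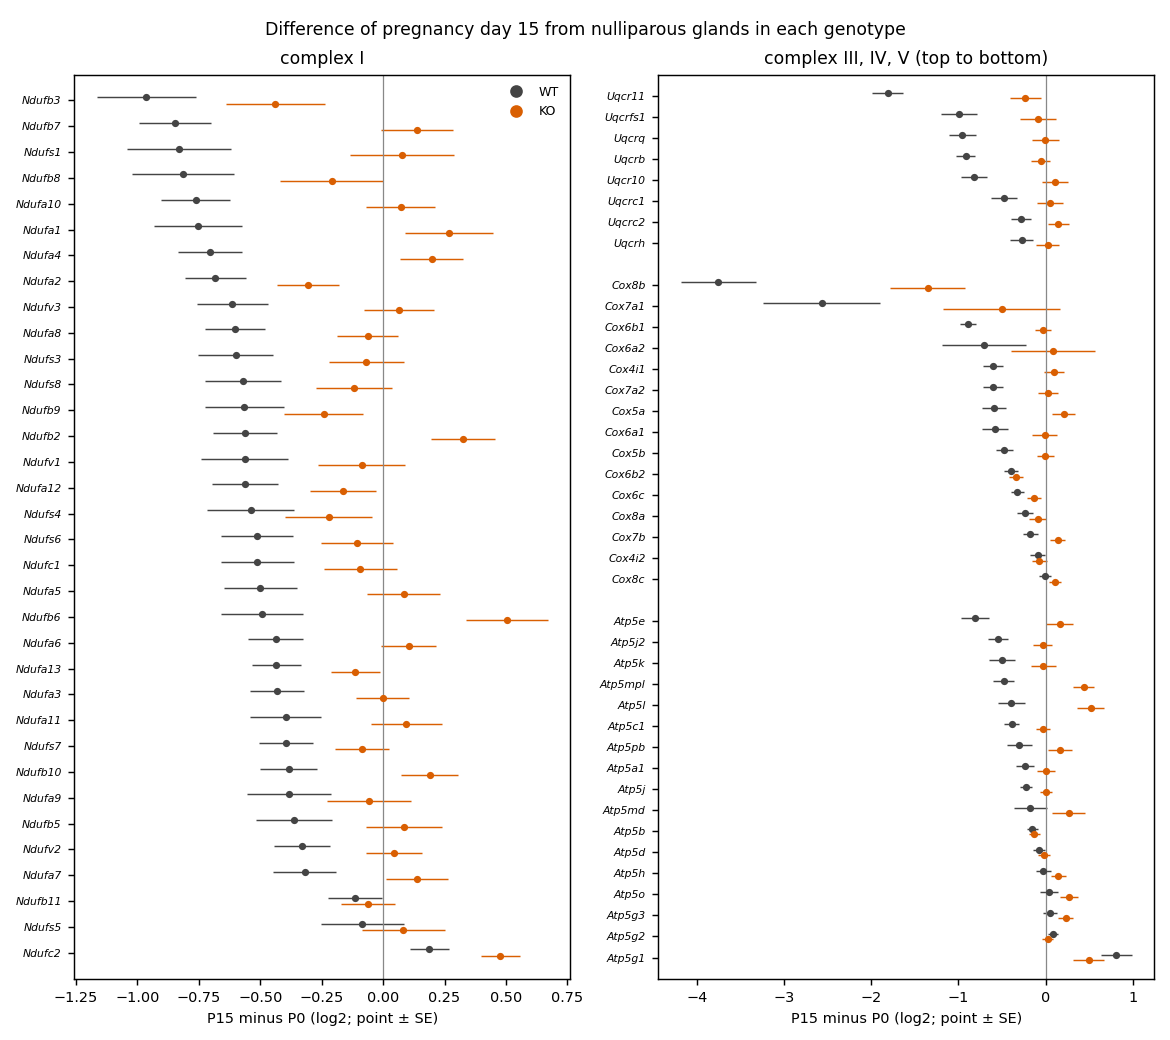
Log2 difference between P15 and P0 for each of the 74 tested members in WT (grey) and KO (orange), with the SE as whiskers; the left panel shows complex I and the right panel complexes III, IV and V. In WT all 8 complex III subunits lie below 0, from Uqcr11 at -1.81 to Uqcrh at -0.27, and in KO they lie between -0.24 and 0.15.

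Averaged over both genotypes, 40 members were lower on day 15 (31.0% of all genes) and 3 higher (25.4% of all genes). Cox8b, a complex IV isoform of heart, muscle and brown fat, fell most, by -2.55 (SE 0.31, adjusted p = 2.44e-08), followed by Cox7a1, another such isoform, -1.54 (SE 0.47, adjusted p = 0.00638), and Uqcr11, -1.02 (SE 0.13, adjusted p = 3.84e-08). Among complex I subunits the largest fall was that of Ndufb3, -0.70 (SE 0.14, adjusted p = 0.000103), whose values were 9.17, 8.35, 8.91 and 8.94 at WT P0, 8.61, 8.36, 8.39 and 8.64 at KO P0, 7.98, 7.89, 7.998 and 7.65 at WT P15 and 8.10, 8.16, 8.09 and 7.90 at KO P15. Every Ndufb3 value on day 15 lay below every value at P0. The 3 rises were Atp5g1, 0.65 (SE 0.13, adjusted p = 5.34e-05), Ndufc2, 0.33 (SE 0.06, adjusted p = 8.19e-06), and Atp5g3, 0.14 (SE 0.06, adjusted p = 0.0441). Ndufc2 read 12.22, 11.83, 12.06 and 12.14 at WT P0, 11.99, 11.89, 11.95 and 12.16 at KO P0, 12.22, 12.27, 12.24 and 12.27 at WT P15 and 12.38, 12.45, 12.55 and 12.52 at KO P15, so the day 15 arrays lay above every P0 array except WT P0 replicate 1, which was level with the lowest of them. Atp5g3 turned to -0.02 (adjusted p = 0.770) with each array centred on its median. Centring moved the median of all genes on day 15 by -0.16 and quantile normalization by -0.12, and under them 62 and 48 members were lower.

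On day 15, 20 of 74 members were called higher in KO than in WT (6.78% of all genes) and none lower (4.33% of all genes). The median difference was 0.23 over the members and 0.01 over all genes. For 42 members every KO P15 array lay above every WT P15 array, as for 10.6% of all genes, and for 2 members every KO array lay below (8.49% of all genes). The called members were 4 of 8 in complex III, 5 of 15 in complex IV, 6 of 34 in complex I and 5 of 17 in the ATP synthase. Without the library labelled KO P15 replicate 3, whose Ptpn1 value goes against its label, 17 were called. Without the 7 arrays in doubt 18 were called, of which 17 are among these 20.

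In complex III all 4 called members are small subunits outside the electron-carrying core. Uqcr11, a very small subunit at the edge of the complex, read 9.20, 9.01, 9.36 and 9.06 on the WT arrays and 10.23, 10.50, 10.93 and 10.44 on the KO arrays, a difference of 1.37 (SE 0.18, adjusted p = 2.02e-05). The lowest KO array lay above the highest WT array by more than the range of the WT values. Uqcrb, a subunit near the ubiquinone site, read 11.49, 11.67, 11.66 and 11.39 in WT and 12.23, 12.41, 12.62 and 12.17 in KO, 0.80 (SE 0.11, adjusted p = 2.82e-05). Uqcrq, another small subunit, read 9.81, 9.86, 9.80 and 9.72 in WT and 10.25, 10.34, 10.69 and 10.48 in KO, 0.64 (SE 0.16, adjusted p = 0.00603). These groups did not overlap. Uqcr10 read 9.19, 8.99, 9.09 and 8.95 in WT and 9.61, 9.66, 9.81 and 9.77 in KO, 0.66 (SE 0.15, adjusted p = 0.00363). The Rieske iron-sulphur protein Uqcrfs1 differed by 0.51 (SE 0.21, adjusted p = 0.114), and the core proteins Uqcrc1 and Uqcrc2 by 0.18 and 0.15; these 3 and the hinge protein Uqcrh were not called. A second probe set of Uqcr11 gave 1.15 and a second one of Uqcrb 0.83, both called, while the third and dimmest probe set of Uqcrb gave 0.19 and was not.

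In complex IV the called members were Cox8b, Cox6b1, Cox4i1, Cox5a and Cox7a2. Cox8b had the largest difference of all members, 2.17 (SE 0.43, adjusted p = 0.00126), with 8.86, 8.42, 8.60 and 7.78 in WT and 9.67, 11.22, 11.42 and 10.04 in KO. Cox6b1, which faces the intermembrane space and joins the 2 monomers of the dimer, read 10.92, 10.84, 10.96 and 10.95 in WT and 11.49, 11.55, 11.73 and 11.56 in KO, 0.66 (SE 0.09, adjusted p = 2.98e-05). Both genes separated the 2 groups without overlap, Cox6b1 with a WT range narrower than the gap. Cox4i1, the common form of the regulatory subunit 4, read 10.58, 10.62, 10.58 and 10.61 in WT and 11.04, 11.24, 11.16 and 11.17 in KO, 0.55 (SE 0.11, adjusted p = 0.00169). Cox5a, a matrix-side subunit, read 10.03, 9.93, 9.86 and 9.87 and 10.25, 10.39, 10.57 and 10.42, 0.48 (SE 0.13, adjusted p = 0.0183). Cox7a2, the broadly expressed form of subunit 7a, read 10.32, 10.41, 10.51 and 10.39 and 10.81, 10.86, 11.05 and 10.71, 0.45 (SE 0.11, adjusted p = 0.00822). Of these 3, each lowest KO value was above the highest WT value, and Cox5a alone was no longer called once the 7 arrays in doubt were left out (adjusted p = 0.0501).

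In complex I the 6 called members were accessory subunits, out of 28 measured, with Ndufa4 counted among both by its symbol. Of the 6 measured core subunits, which carry the flavin and the iron-sulphur clusters or sit beside them, none was called. Their differences lay between 0.11 (Ndufs7) and 0.44 (Ndufs1). Every KO array lay above every WT array for Ndufs1, Ndufs3 and Ndufv2, and the arrays of Ndufs7, Ndufs8 and Ndufv1 overlapped. The split into accessory and core subunits was made after the values were seen and was not tested. Ndufb2, a membrane-arm subunit, read 7.03, 7.12, 7.33 and 6.97 in WT and 7.73, 7.80, 8.07 and 8.05 in KO, 0.80 (SE 0.13, adjusted p = 0.000174). Ndufb6, of the same arm, read 10.93, 11.17, 10.70 and 10.96 in WT and 11.59, 11.53, 11.91 and 11.64 in KO, 0.73 (SE 0.17, adjusted p = 0.00409). Ndufb7 read 8.71, 8.42, 8.45 and 8.33 in WT and 8.96, 9.13, 9.41 and 9.19 in KO, 0.69 (SE 0.15, adjusted p = 0.00213). All KO values of these 3 genes exceeded all WT values. Ndufa1, a small X-linked subunit needed for assembly, read 7.72, 8.14, 7.74 and 7.80 in WT and 8.41, 8.51, 8.59 and 8.69 in KO, 0.70 (SE 0.18, adjusted p = 0.00961). Ndufa4 read 10.08, 10.07, 10.15 and 9.77 and 10.52, 10.60, 10.88 and 10.63, 0.64 (SE 0.13, adjusted p = 0.0014). Ndufa10 read 10.56, 10.72, 10.59 and 10.60 and 11.000, 11.17, 11.15 and 11.13, 0.49 (SE 0.14, adjusted p = 0.0194). In these 3 as well, no KO array fell into the WT range.

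In the ATP synthase the called members were the epsilon and gamma subunits of the rotor and 3 small membrane subunits. Atp5e, the epsilon subunit, read 8.17, 8.35, 8.28 and 8.12 in WT and 9.10, 9.02, 9.30 and 9.11 in KO, 0.90 (SE 0.16, adjusted p = 0.000316). Atp5mpl, a small proteolipid of the membrane part, read 9.41, 9.55, 9.64 and 9.36 and 10.03, 10.05, 10.35 and 10.39, 0.71 (SE 0.12, adjusted p = 0.000223). Atp5l, subunit g, read 10.07, 9.91, 10.27 and 10.08 and 10.57, 10.74, 10.71 and 11.02, 0.68 (SE 0.16, adjusted p = 0.00401). The 2 genotypes did not overlap in any of the 3. Atp5j2, subunit f, read 11.17, 11.16, 11.08 and 11.07 and 11.35, 11.50, 11.64 and 11.43, 0.36 (SE 0.11, adjusted p = 0.0334), and the gamma subunit Atp5c1 read 11.36, 11.42, 11.40 and 11.38 and 11.62, 11.63, 11.78 and 11.58, 0.26 (SE 0.08, adjusted p = 0.0358). Neither of these last 2 was called without the arrays in doubt. The catalytic subunits Atp5a1 and Atp5b differed by 0.08 and -0.05 and the c-ring genes Atp5g1, Atp5g2 and Atp5g3 by -0.13, -0.11 and 0.04, none of them called with the probe set used. Atp5g2 has 3 probe sets. The dimmest gave 0.71 and was called (limma adjusted p = 0.0024 over all probe sets), and another gave 0.04. Atp5l has 5 probe sets; 4 gave differences between 0.56 and 0.68, and the dimmest gave -0.08.

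Of the 20 members called on day 15, 16 have a promoter window, and 6 of these (37.5%) hold the ETS letters, printed in capitals for Uqcr11; the other 5 are Ndufb6, Ndufb7, Cox6b1, Atp5e and Atp5l. Among the 45 members with a window that were not called, 5 hold them (11.1%), and among all genes called higher in KO on day 15, 23.9%. The NRF1 letters were in none of the 16 and in 4 of the 45. These counts were taken after the calls were known and were not tested.

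Fewer members were called between the genotypes at the other stages. At P0 no member was called, beside 1.27% of all genes higher and 0.421% lower in KO; 73 of 74 differences were negative, with a median of -0.22, and 16 had an unadjusted p below 0.05. Without WT P0 replicate 2, which lacked the brown adipocyte signal of the other WT P0 arrays (score -0.86 against 1.24 to 2.11), 17 members were called at P0. The smallest unadjusted p-values at P0 belonged to Cox4i2, -0.26 (SE 0.08, adjusted p = 0.0962), Cox8c, -0.21 (SE 0.07, adjusted p = 0.106), and Ndufa8, -0.30 (SE 0.12, adjusted p = 0.169). On day 3 no member was called (0.00593% of all genes higher and 0.113% lower); 70 of 74 differences were positive and 9 had an unadjusted p below 0.05, the smallest being Atp5e, 0.48 (SE 0.18, adjusted p = 0.556), Ndufa1, 0.53 (SE 0.21, adjusted p = 0.568), and Ndufb10, 0.34 (SE 0.13, adjusted p = 0.582). On day 7 none was called (0% of all genes higher and 0.00593% lower; 2 unadjusted), and over the mean of all stages none was called either (1.30% of all genes higher and 1.13% lower; 6 unadjusted). Counted by arrays, every KO array lay below every WT array at P0 for 4 members (4.81% of all genes) and above for none (3.23%). On day 3 the KO arrays lay above for 5 members (3.32%) and below for none (5.08%), on day 7 above for 1 (0.747%) and below for none (1.04%), and on day 10 below for 3 (14.6%) and above for none (11.0%).

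On day 10, 7 members were called lower in KO (9.13% of all genes) and none higher (8.10% of all genes). Among these 7 Uqcr11 differed most, -0.96 (SE 0.21, adjusted p = 0.00174), with 11.35, 10.68 and 10.72 in WT and 10.53, 9.62 and 9.69 in KO. The others were Ndufa11 (-0.61), the core subunit Ndufs3 (-0.53), Cox5a (-0.46), Ndufa2 (-0.44), Cox6b1 (-0.35) and the peripheral stalk subunit Atp5j (-0.26). Ndufa11 read 10.95, 10.56 and 10.70 in WT and 10.57, 9.89 and 9.92 in KO, and Ndufs3 11.37, 10.97 and 10.77 and 10.80, 10.29 and 10.45. Cox5a read 10.71, 10.34 and 10.21 in WT and 10.26, 9.78 and 9.85 in KO, Ndufa2 10.15, 9.64 and 9.68 and 9.58, 9.34 and 9.24, and Atp5j 11.75, 11.67 and 11.59 and 11.64, 11.23 and 11.35. In each of these 7 members KO replicates 2 and 3 were the lowest arrays of the stage. In Cox6b1 the KO arrays read 11.65, 11.21 and 11.20 and the WT arrays 11.89, 11.66 and 11.56, so replicate 1 of KO lay inside the WT range. All 13 B and T lymphocyte markers were called higher in KO on day 10, with a score of 0.04, 3.64 and 3.53 on the KO arrays and -0.28 to -0.15 on the WT arrays. The 2 KO arrays rich in these markers were the low ones for Uqcr11 and Cox6b1. Without the 7 arrays in doubt, or with the lymphocyte score as a covariate, no member was called between genotypes on day 10. Without KO P10 replicate 1, 37 were called lower in KO, and without WT P10 replicate 1, KO P10 replicate 2 or KO P10 replicate 3, 1 was.

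An F test asked whether KO minus WT was equal at all 5 stages, and it called 27 of 74 members (18.0% of all genes). It called 12 in complex I, 5 in complex III, 5 in complex IV and 5 in the ATP synthase. Uqcr11 had the smallest adjusted p, 9.18e-05, followed by Cox6b1, 0.00032, and Uqcrb, 0.000583. For Uqcr11 the difference between KO and WT was -0.21 at P0, 0.28 on day 3, -0.07 on day 7, -0.96 on day 10 and 1.37 on day 15. For Cox6b1 the sequence was -0.19, 0.11, -0.02, -0.35 and 0.66. Both were negative on day 10 and positive on day 15. Members called by this test but not between the genotypes on day 15 were Ndufb10, Ndufa11, Ndufs3, Ndufa5, Ndufa6, Ndufv3, Uqcrfs1, Atp5j and no complex IV subunit. Uqcrfs1 read 8.35, 8.21, 8.39 and 8.36 in WT and 8.64, 8.94, 9.12 and 8.62 in KO on day 15, and Ndufb10 7.35, 7.44, 7.43 and 7.23 and 7.61, 7.71, 7.70 and 7.78. Without the 7 arrays in doubt, which include 2 of the 3 KO P10 arrays, 6 members were called; without WT P0 replicate 2, 43 were, and without KO P10 replicate 1, 41.

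**Figure D3:**
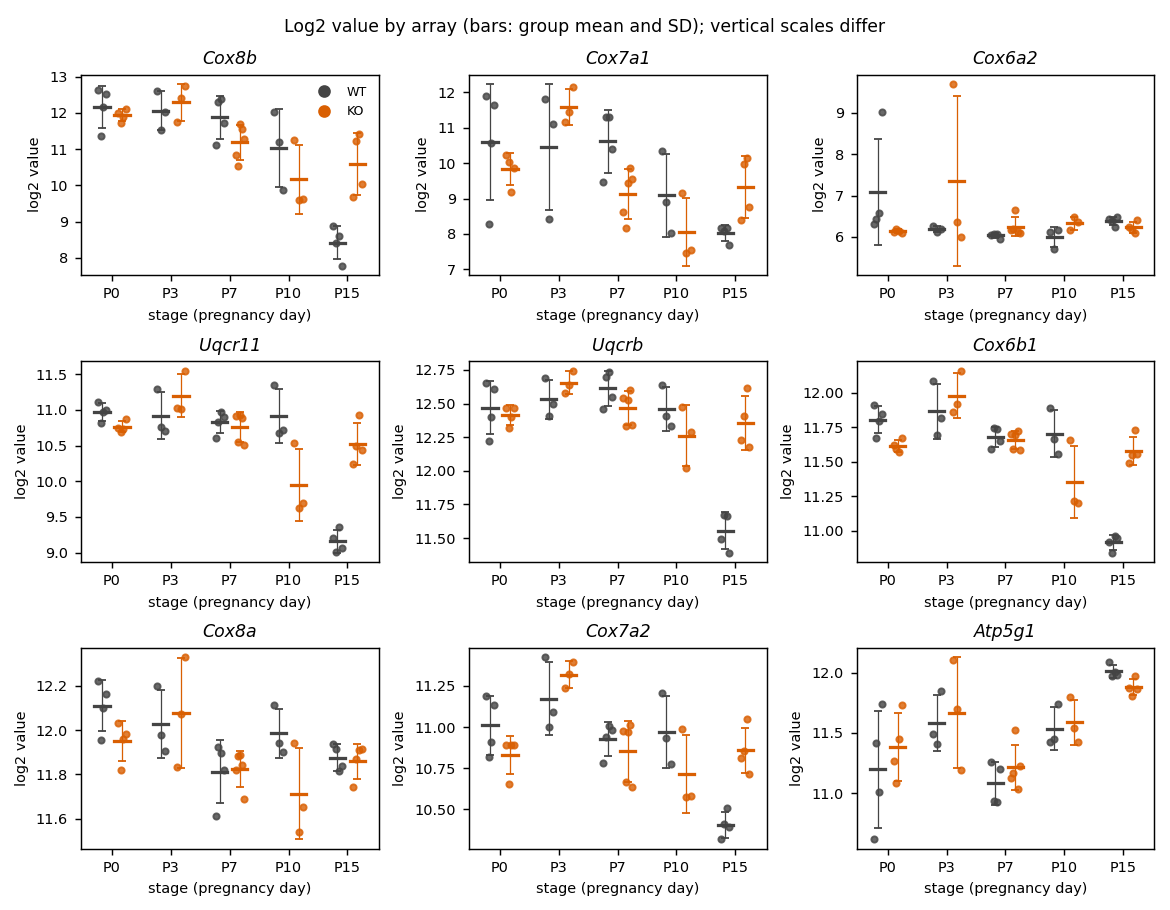
Log2 values of 9 members on each of the 37 arrays by stage in WT (grey) and KO (orange); points are arrays, thick lines group means and whiskers the SD, and the vertical scales differ between panels. Cox6a2 exceeds 9 on 1 WT P0 and 1 KO P3 array only, and Uqcr11, Uqcrb and Cox6b1 drop on the 4 WT P15 arrays.

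Several complex IV subunits have a common form and a tissue form. Cox8b read 12.64, 11.36, 12.16 and 12.52 at WT P0 and 12.01, 11.73, 11.89 and 12.12 at KO P0, against the P15 values given above, and its change in WT was -3.75, beside -0.23 for the common form Cox8a and -0.01, not called, for the testis form Cox8c. Cox8a read 12.22, 11.96, 12.10 and 12.16 at WT P0 and 12.03, 11.82, 11.96 and 11.98 at KO P0, and 11.94, 11.91, 11.82 and 11.84 in WT and 11.74, 11.87, 11.91 and 11.91 in KO on day 15. Its day 15 arrays overlapped between genotypes. Cox7a1, the muscle and brown fat form of subunit 7a, varied widely within groups, with 11.89, 8.28, 10.58 and 11.64 at WT P0, 10.22, 10.02, 9.19 and 9.87 at KO P0, 8.16, 8.07, 8.18 and 7.70 at WT P15 and 8.40, 9.99, 10.15 and 8.75 at KO P15. On day 15 all 4 KO arrays were above the WT arrays, but the difference of 1.29 (SE 0.67, adjusted p = 0.243) was not called.

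Cox6a2, the heart and skeletal muscle form of subunit 6a, was high on 2 arrays. It read 6.32, 6.44, 6.59 and 9.01 at WT P0 and 9.70, 6.35 and 5.995 at KO P3, and between 5.72 and 6.65 on every other array. WT P0 replicate 4 and KO P3 replicate 1 were also those with the highest skeletal muscle scores, 4.90 and 5.20, while KO P7 replicate 3, with a score of 2.27, read 6.65. The partner Cox6a1 was 11.72, 11.18, 11.41 and 11.58 at WT P0 and 11.10, 11.44 and 11.80 at KO P3, with no such high array. Cox4i2, the lung form of subunit 4, stayed between 7.11 and 7.70 on all arrays, and its day 15 values of 7.53, 7.44, 7.47 and 7.39 in WT and 7.11, 7.23, 7.22 and 7.32 in KO ran opposite to those of Cox4i1 without being called (-0.24 (SE 0.08, adjusted p = 0.0619)). The testis forms Cox6b2, Cox8c and Cox7b2 stayed within 5.86 to 6.62, 6.48 to 6.97 and 3.66 to 4.22; of these, Cox6b2 fell on day 15, -0.36 (SE 0.06, adjusted p = 2.38e-06). Cox7b, the common partner of Cox7b2, read 12.15, 12.18, 12.22 and 12.14 in WT and 12.48, 12.36, 12.54 and 12.31 in KO on day 15, without overlap and without a call (0.25 (SE 0.09, adjusted p = 0.064)).

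The 3 genes for the c-ring of the ATP synthase, which encode the same mature protein behind different import sequences, were each followed by stage. Atp5g1 rose to 12.09, 11.97, 12.003 and 11.98 in WT and 11.87, 11.81, 11.97 and 11.86 in KO on day 15, from 10.62, 11.42, 11.01 and 11.74 and 11.26, 11.08, 11.45 and 11.73 at P0, and every day 15 array lay above every P0 array. Its rise was called in each genotype (0.81 in WT and 0.50 in KO), the only member called higher in WT. Atp5g2 read 11.69, 11.63, 11.60 and 11.82 and 11.55, 11.60, 11.66 and 11.73 at P0 and 11.71, 11.83, 11.76 and 11.78 and 11.66, 11.75, 11.51 and 11.71 on day 15, a difference of 0.05 (SE 0.04, adjusted p = 0.276). Atp5g3 read 12.22, 12.16 and 12.07 and 12.08, 12.19 and 12.06 on day 3, all above its highest P0 value of 11.98, and rose on that day by 0.39 (SE 0.06, adjusted p = 5.55e-05). A second probe set of Atp5g1 gave 0.62 on day 15.

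Within groups, most subunits read higher on arrays with more brown adipocyte signal. The score was the mean of 9 brown adipocyte markers, Ucp1 among them, with Cox7a1 and Cox8b left out because they are members. With a mean for each group in the fit, the slope on this score was positive and called for 62 of 74 members and negative for none, beside 8.41% positive and 4.62% negative among all genes. All 8 complex III members, 32 of 34 in complex I, 11 of 15 in complex IV and 11 of 17 in the ATP synthase were called. Cox7a1 changed by 1.13 (SE 0.08) per unit of score and Cox8b by 0.68 (SE 0.07), while the next largest were Ndufb8, 0.31 (SE 0.04), Ndufb3, 0.31 (SE 0.04), and Uqcrfs1, 0.31 (SE 0.04). The lowest slopes belonged to Cox6a2, -0.16 (SE 0.16), and Atp5g1, -0.10 (SE 0.06), and the 3 c-ring genes were all uncalled. The median slope was 0.16 over the members and near 0 (-0.0045) over all genes. Without the 7 arrays in doubt 43 were positive. These slopes were added after the values were seen.

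**Figure D4:**
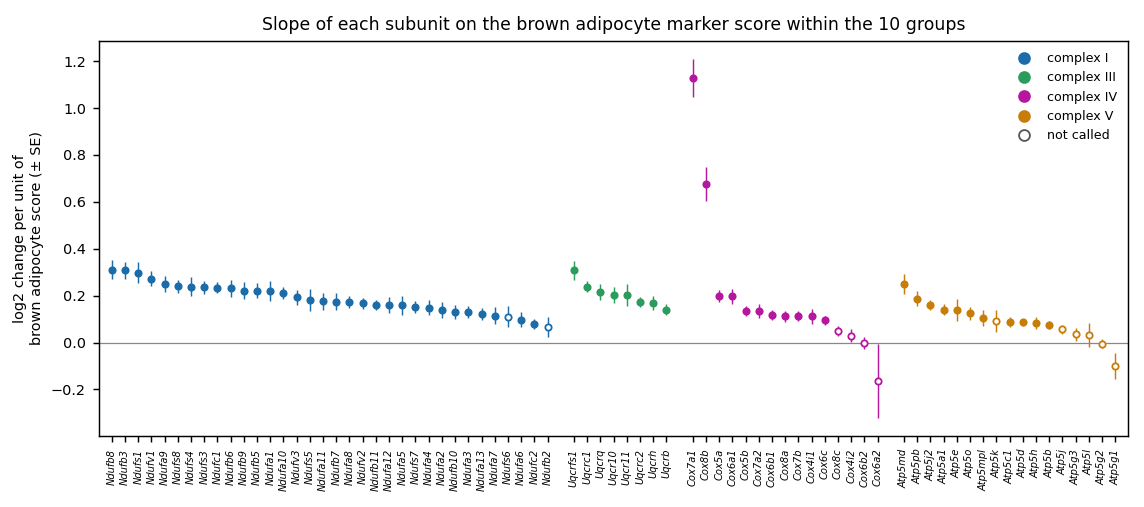
Log2 change of each of the 74 tested members per unit of the brown adipocyte marker score within the 10 groups, with the SE as whiskers, by complex; filled points were called and open points were not. Cox7a1 (1.13) and Cox8b (0.68) stand above the others, and the c-ring genes Atp5g1, Atp5g2 and Atp5g3 lie at the lower end of the ATP synthase.

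The brown adipocyte score was -0.80, -0.98, -0.90 and -1.32 on the WT P15 arrays and -0.91, 0.23, 0.31 and -0.67 on the KO P15 arrays, which overlap, and 7 of its 9 markers were called lower on day 15 than at P0, Ucp1 by -2.73 and Elovl3 by -2.44. With the score as a covariate, the day 15 change from P0 was called for 9 members higher and 7 lower. Shares of all genes were not counted for any comparison under this covariate. Cox8b (-1.67), Uqcr11 (-0.76), Cox6b1 (-0.31) and Uqcrb (-0.30) were still called lower, whereas Cox7a1 moved to -0.06 and was not. The genotype difference on day 15 under the same covariate was called for 19 members higher and 2 lower in KO, Uqcr11 at 1.22, Cox8b at 1.67 and Cox6b1 at 0.58; the 2 lower ones were Ndufb11 (-0.25) and Cox4i2 (-0.26). Between the genotypes on day 15, none of 9 brown adipocyte, 16 epithelial or 13 lymphocyte markers was called, 1 of 9 milk protein genes was, and 4 of 10 white adipocyte markers were higher in KO.

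Skeletal muscle signal touched few members. The slope on the skeletal muscle score was called for Cox6a2, 0.54 (SE 0.03), and Atp5g1, 0.14 (SE 0.03), both positive (2.13% of all genes), and for no member in the negative direction (0.634% of all genes). Only 1 was called without WT P0 replicate 4 or without KO P3 replicate 1, and neither without the 7 arrays in doubt.

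Other genes of the electron transport system were counted in the same comparisons. With both genotypes averaged, all 4 complex II subunits were called lower on day 15 than at P0, Sdhb by -0.64 and Sdha by -0.52. By genotype all 4 were lower in WT, with a median of -0.83, and 0 in KO, with a median of -0.17. Sdhb was higher in KO than in WT on day 15, 0.65. Cytochrome c (Cycs), which carries electrons from complex III to complex IV, fell by -0.54 in the genotype average and was 0.84 higher in KO. Of 44 assembly factors, which help build the complexes without staying in them, 23 were lower and 5 higher on day 15 in that average. The shares of all genes were 31.0% and 25.4%. Uqcc2 and Tmem126b were at -0.66 and -0.78. In WT 24 were lower (27.3% of all genes) and 3 higher (21.6%), and in KO 5 lower (21.8%) and 6 higher (19.5%). On day 15, 9 were higher in KO than in WT (6.78% of all genes). On day 3, both genotypes averaged, 20 of these 44 had been higher than at P0 (15.7% of all genes) and 1 lower (14.5%).

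With both genotypes averaged, genes of fuel oxidation were lower on day 15, and few were called on day 3. All 12 beta-oxidation genes were lower on day 15, among them Acadvl (-0.90) and the carnitine carrier Slc25a20 (-1.16). So were 11 of 16 genes of the citric acid cycle and pyruvate dehydrogenase, among them Sucla2 (-0.93) and Idh3a (-0.82). By genotype, beta-oxidation genes were called lower for 11 of 12 in WT (median -1.15) and 2 of 12 in KO (median -0.28). The citric acid cycle genes were lower for 12 of 16 in WT (median -0.61). In KO 0 of these 16 were lower and 1 was higher (median -0.02). On day 3 the beta-oxidation genes had 0 higher and 1 lower, and the citric acid cycle genes 1 higher and 0 lower, beside the 38 and 0 of the respiratory chain members. Among 15 regulators of mitochondrial biogenesis 3 were higher and 4 lower on day 15 in the genotype average, shares no larger than those of all genes (25.4% higher and 31.0% lower). Ppargc1a, the coactivator of mitochondrial genes in brown fat, was -1.19 and Ppara -1.67 in that average. In WT 2 regulators were higher (21.6% of all genes) and 5 lower (27.3%), and in KO 4 higher (19.5%) and 1 lower (21.8%). The mitochondrially encoded ND3 and COX2 differed by -0.07 and 0.07 on day 15 in the genotype average and were not called. By genotype, 1 of these 2 was called lower in WT (-0.16), and 0 were called in KO.

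Ribosomal protein genes, counted after the values were seen, served as a further comparison. With both genotypes averaged, 48 of 74 mitochondrial ribosomal protein genes were higher on day 3 (15.7% of all genes) and none lower (14.5%). On day 15, 32 were lower (31.0%) and 9 higher (25.4%) than at P0. By genotype, 39 were lower and 2 higher in WT on day 15, and 2 lower and 9 higher in KO. Between genotypes on day 15, 22 were higher in KO than in WT (6.78% of all genes) and none lower (4.33%). Of 55 cytosolic ribosomal protein genes 32 were higher (25.4% of all genes) and 2 lower (31.0%) on day 15 in the average. In WT 27 were higher and 2 lower, and in KO 16 were higher and 2 lower. On day 15, 9 were higher in KO than in WT (6.78% of all genes).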

How the data were processed

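Total RNA of mammary glands was amplified to sense-strand cDNA, biotin-labelled and hybridised to Affymetrix whole-transcript arrays, per the labels' protocols. The deposited values are log2 probe set intensities; the submitters' processing notes name affy, and no source used here gives the background correction, summarisation or normalization. Probe sets were named from the platform annotation: 21640 of 34760 carry 1 symbol, 1321 several and 11799 none, and only the first were used. The members have 97 probe sets; 15 members have more than 1, some of which may read near-identical copies. Genes were tested if above 4.96, the 25th percentile of the table, on at least 3 arrays. limma 3.58.1 in R 4.3.3 fitted 1 mean per group over the 37 arrays, with Benjamini-Hochberg adjustment, and was tested on simulated data. The number of arrays limits the precision. Marker and complex scores are means of genes centred over all arrays. The replicate numbers were not used to pair samples (see the closing section). The members and lists were chosen with earlier results of these data known. By the naming rule, values by array go to the 3 largest called rises and falls of each stage, the isoform pairs, members called between genotypes (or the 3 smallest p-values) and the median member of each complex, of which those the results turn on are printed; other genes come from the lists, at most 4 per list. Promoter windows are from RefSeq, and a gene with several windows holds a motif if any of them does.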

Additional observations from a re-analysis of the deposited data

Results flagged for a closer look

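In 8 of 288 groups of 4 or 5 arrays examined for 48 values, 1 array stood apart from the rest; chance gives about 1 in 20. Cox6a2 read 9.01 on WT P0 replicate 4, against 6.32 to 6.59 on the other 3, and 6.65 on KO P7 replicate 3, against 6.10 to 6.20 on the other 4; both arrays had raised skeletal muscle markers. KO P0 replicate 2 was low for Cox7a2 (10.66 against 10.89 on the other 3) and for Uqcrq (10.275 against 10.49 to 10.51), and KO P0 replicate 4 was high for Ndufa11 (10.64 against 10.17 to 10.24). KO P7 replicate 1 was high for Atp5l (10.82 against 10.22 to 10.34). WT P7 replicate 1, which had raised lymphocyte markers, was low for Atp5j2 (11.475 against 11.61) and for the complex V mean (-0.14 against -0.04 to -0.02).

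The genotype difference varied between stages, by limma's F test over all genes, for 27 members. In complex III the adjusted p was 9.18e-05 for Uqcr11, 0.000583 for Uqcrb, 0.00478 for Uqcr10, 0.0083 for Uqcrq and 0.0329 for Uqcrfs1. In complex IV it was 0.00032 for Cox6b1, 0.00471 for Cox4i1, 0.00517 for Cox5a, 0.0060 for Cox8b and 0.015 for Cox7a2. In the ATP synthase it was 0.00309 for Atp5e, 0.00356 for Atp5mpl, 0.00682 for Atp5l, 0.0267 for Atp5j and 0.0309 for Atp5j2. In complex I it was 0.00144 for Ndufb2, 0.00506 for Ndufb7, 0.00724 for Ndufa4, 0.00794 for Ndufa1, 0.0133 for Ndufb6, 0.0139 for Ndufa10, 0.0185 for Ndufb10, 0.0236 for Ndufa11, 0.0453 for Ndufs3, 0.046 for Ndufa5, 0.049 for Ndufa6 and 0.0492 for Ndufv3.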

How the results depend on the processing

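Counts are of called members. Of the counts and medians recomputed under other settings, 185 stayed within 1.5 times or 1 SD; the exceptions follow, and their cause was not tested. With each array centred on its median, 21 members were called on day 3 against P0, 19 on day 7, 35 on day 10, 34 between genotypes on day 10 and 45 by the F test, and the complex V median on day 15 was -0.21. Array weights gave 18 on day 7, 50 on day 10, and between genotypes 4 over all stages, 5 at P0, 44 on day 10 and 32 on day 15, 57 by the F test, and 5 and 45 for the response differences at P3 and P15. Quantile normalization gave 11 between genotypes on day 10.

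The brown adipocyte covariate gave 19 on day 7, 11 on day 10, 16 on day 15 and 2 between genotypes over all stages, with day 15 medians of -0.030, -0.11, -0.062 and 0.069 for complexes I, III, IV and V. The lymphocyte covariate, added after seeing the data, gave 2 on day 10 and 0 between genotypes on day 10. Without the 7 arrays in doubt the counts were 4 on day 10, 0 between genotypes on day 10, 6 by the F test and 0 for the muscle slope. In WT alone 2 members were called on day 3 and 2 on day 10, and in KO alone 0 on day 7, 4 on day 10 and 11 on day 15. The day 15 medians of complexes I, III, IV and V were -0.53, -0.87, -0.58 and -0.22 in WT and 0.021, 0.012, -0.011 and 0.15 in KO; complexes I, III and V changed sign in KO, and complex V also with the brown adipocyte covariate, from a main median of -0.048. Among single members Atp5g3 on day 15 changed sign to -0.022 when arrays were centred, and Atp5l between genotypes on day 15 changed to -0.083 with its dimmest probe set.

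Leaving out 1 array at a time gave 23 to 43 called members on day 3, 6 to 17 on day 7, 7 to 40 on day 10 and 38 to 51 on day 15. Between genotypes the counts ran from 0 to 1 over all stages, 0 to 17 at P0, 1 to 37 on day 10 (37 without KO P10 replicate 1; 1 without WT P10 replicate 1, KO P10 replicate 2 or KO P10 replicate 3) and 17 to 27 on day 15. The F test gave 19 to 43, the response differences 0 to 14 at P3 and 18 to 45 at P15, and the muscle slope 1 to 2. WT P0 replicate 2 decided the upper end for days 7, 10 and 15, between genotypes at P0 and on day 15, by the F test and for both response differences. After each gene's group mean was removed, same-numbered WT and KO arrays of a stage correlated between -0.52 and 0.38. Of 18 such pairs 9 exceeded 0.1. With so few arrays per group, this check cannot decide whether the numbers pair arrays. With the replicate block the counts were 41, 9, 13 and 45 for days 3 to 15, 9 and 21 between genotypes on days 10 and 15, and 25 by the F test.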
